A study of Synthetic plasmid and Mus musculus with 4 samples.

Results

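R1 to R500 are the mouse genomic target sites whose identifier carries the letter R and a number from 1 to 500, and the reporter library held 419 of these 500 numbers among 3483 target sites in all. The rule that defines them uses the identifier alone and no measured value, but it was set with earlier results of these data known. Their 5516 constructs were among 45670 in the library, with a median of 7 constructs per site and a range of 1 to 129. A construct is a plasmid that carries 1 captured genomic fragment and 1 transcribed barcode. A site entered the tests of a tissue with 5 or more passing constructs, meaning constructs counted 10 times or more in each of the tissue's DNA libraries. On this rule 233 of the 419 sites were tested in retina, 244 in cortex and 232 in both. Of the other 186 sites in retina, 172 had 1 to 4 passing constructs and 14 had none.

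The study asked which fragments of accessible chromatin drive transcription in 2 parts of the mouse central nervous system. Fragments were captured from sheared genomic DNA of C57BL/6J mice. The number of transcribed barcodes in RNA was then set against the number of delivered barcodes in DNA. The letter R is read, from knowledge of the study, as a DNase hypersensitive site of retina, and B, H and L as those of brain, heart and liver in turn. Only the letters stand in the tables, and what the number in an identifier stands for is not given in the sources used here.

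Both groups were CD-1 mice, and the labels name no genotype beyond the strain. Retinas were electroporated with the plasmid library outside the body on the day of birth and kept in culture for 8 days, and each of 3 replicates pooled 5 retinas. In the cortex group, the library was packaged in an adeno-associated virus and injected stereotactically into animals 4 to 6 weeks old. Tissue was taken 4 to 5 weeks later by dissecting the GFP-positive parts, and each of 3 replicates was 1 animal. Each replicate gave an RNA and a DNA library. Tissue, age, delivery vehicle, culture and sequencing lane all differ between the groups, so a difference between them cannot be told apart from any one of these. The libraries hold barcodes only, so the tissues could not be checked against marker genes.

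A DNase hypersensitive site is a stretch of chromatin that is open to cutting because proteins hold the nucleosomes apart, and enhancers and promoters are typically found there. A reporter assay takes such a stretch out of its chromosome and asks whether it is enough to raise transcription of a neighbouring gene. Many open sites, among them binding sites of the insulator protein CTCF, are open without acting as enhancers. Electroporation of the newborn retina mainly reaches dividing progenitors, most of whose progeny become rod photoreceptors, so the assay reads activity largely in late-born retinal cells.

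Library totals were 7025820 to 10411511 RNA counts and 6501061 to 12147398 DNA counts in retina, and 4000439 to 9674859 RNA counts and 3999412 to 10769648 DNA counts in cortex. The tested sites had a median of 13 passing constructs in either tissue. The measure used for levels is the share ratio, the share of a tissue's RNA counts that a site holds in a replicate divided by its share of the DNA counts. Both shares are of the counts in all passing constructs of the tissue, not of the library totals above. A ratio of 1 means that a site is as frequent in RNA as in DNA. Barcode reads carried no molecular identifiers that were used, so detection limits cover counting error only. Binomial intervals are for the share of tested sites that were called. They take each site as independent, although all sites of a tissue share the same libraries.

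In retina, R1 to R500 supplied most of the reporter RNA. The 233 tested sites held 75.8%, 74.4% and 74.0% of the RNA counts of passing constructs in the 3 replicates (74.7% ± 0.93, SD, n = 3). They held 11.6% ± 0.09 of the DNA counts of passing constructs. Their summed share ratio was 6.59, 6.38 and 6.43. For the 244 tested R sites numbered above 500 it was 1.24, 1.28 and 1.30, and the replicates of the 2 sets of sites did not overlap. The difference was 2.34 ± 0.06 on the log2 scale, in the same direction in 3 of 3 replicates (exact sign-flip permutation test, two-sided, p = 0.25, the smallest that 3 replicates allow). The summed ratios of the B, H and L sites in retina were 0.089, 0.078 and 0.068. RNA was also seen for more of the constructs of R1 to R500, 45.7% ± 3.41 per replicate against 29.9% ± 3.75 for the higher numbers (SD, n = 3).

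In cortex the same sites were not enriched in RNA. Their summed share ratio was 0.734, 0.803 and 0.801 (0.779 ± 0.040, SD, n = 3), against 0.843 ± 0.031 for the R sites above 500 and 1.63 for the B sites. The log2 difference between the numbers up to 500 and those above was -0.19, -0.13 and -0.03 in the 3 replicates (exact sign-flip permutation test, two-sided, p = 0.25). RNA was seen for 60.1% of the constructs of either set per cortex replicate.

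Single sites were tested with edgeR's quasi-likelihood test of RNA against DNA over all 2031 target sites of the retina table, with Benjamini-Hochberg adjustment and a threshold of 0.05. RNA was higher than DNA in 112 of the 233 sites (48.1%, 95% exact binomial interval 41.5 to 54.7), against 8.81% of all sites tested. For the R sites above 500 the count was 65 of 244 (26.6%, interval 21.2 to 32.7). No site was called lower, against 0.148% of all sites, while DESeq2 called 10 of the 233 lower. None had an unadjusted p under 0.05 in that direction, against 159 of the 1798 sites outside R1 to R500. The median log2 RNA/DNA of the 233 sites was 2.30 with quartiles of -0.55 and 5.61, and the median over all 2031 sites was -1.96.

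What a call means depends on where the scaling puts its zero. A log2 RNA/DNA of 0 in the retina fit corresponds to share ratios of 0.0833, 0.0958 and 0.0859 in the 3 replicates, close to the summed ratios of B, H and L sites and far under equal shares. Of the 112 called sites, 19 had a mean share ratio of at most 1. Scaled by total library size instead, which puts the zero at equal shares, 67 of the 233 sites were higher and 46 were lower. Those 67 were all among the 112.

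The sites spread over more than 4 orders of magnitude in retina. Mean share ratios ran from 0.00219 to 75.4. They were at most 0.1 in 55 sites, from 0.1 to 1 in 83, from 1 to 10 in 57 and above 10 in 38. In 36 sites the ratio exceeded 10 in each of 3 replicates. Called sites had a median ratio of 4.49 and the sites not called a median of 0.117, and the ranges met between 0.355 and 1.19. The calls came from the same counts as these ratios, so the gap between the medians tests nothing.

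**Figure D1:**
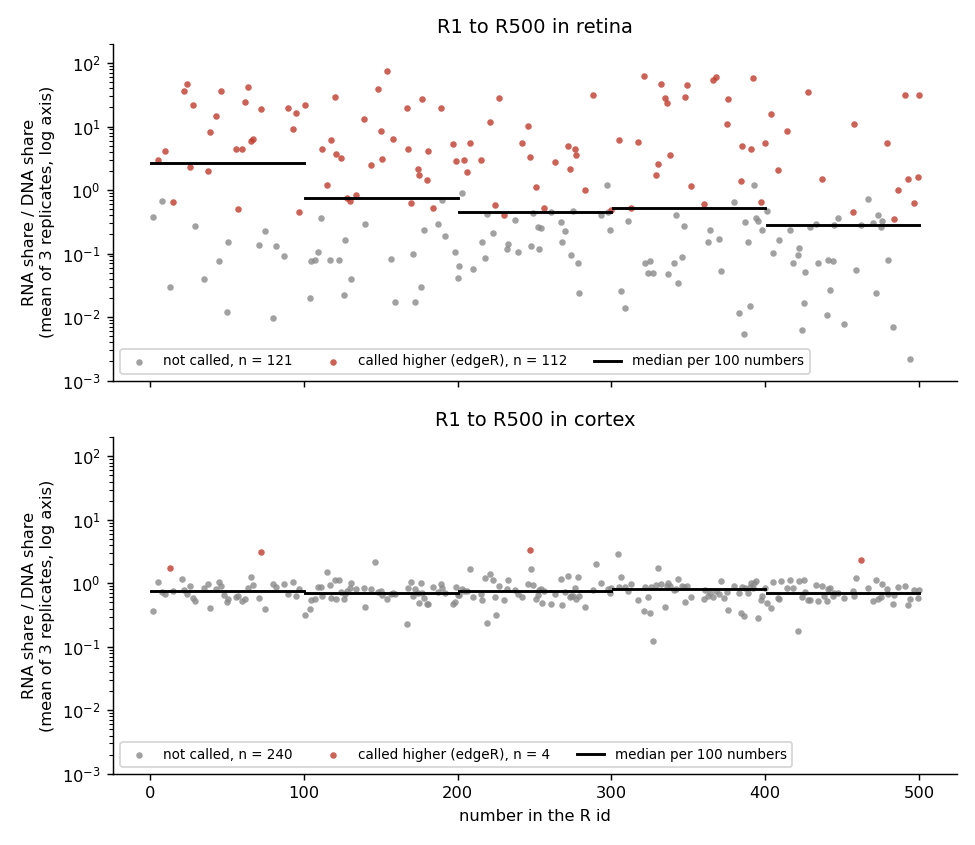
Share ratio (RNA share divided by DNA share, mean of 3 replicates, log axis) of every tested R1 to R500 site against the number in its identifier, in retina (top, n = 233) and cortex (bottom, n = 244). Red points were called higher by edgeR, grey points were not, and black lines mark the median of each 100 numbers; retina ratios run from 0.00219 to 75.4, and 202 of the 244 cortex ratios lie between 0.1 and 1.

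The RNA was concentrated in few sites. In retina 12 sites held 50% or more of all RNA counts of the 233, and 43 sites held 90%. R392 (mm9 chr11:67495426-67495725) alone held 14.0%, and the 10 sites with most RNA held 47.1%. The 112 called sites gave 98.9% ± 0.30 of the RNA counts of the 233 from 52.7% ± 0.32 of their DNA counts (SD, n = 3). In cortex 51 sites were needed for 50% of the RNA and 161 for 90%, and the site with most RNA, R72, held 2.85%.

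Activity in retina was read against the number in the identifier. The called share was 23 of 36 tested sites among numbers 1 to 100 (63.9%, 95% exact binomial interval 46.2 to 79.2), 29 of 51 among 101 to 200 (56.9%, 42.2 to 70.7) and 21 of 49 among 201 to 300 (42.9%, 28.8 to 57.8). It was 24 of 51 among 301 to 400 (47.1%, 32.9 to 61.5) and 15 of 46 among 401 to 500 (32.6%, 19.5 to 48.0). Neighbouring ranges thus overlap in their intervals, and the lowest and the highest numbers overlap only between 46.2% and 48.0%. The intervals take each site as independent, while all sites share the same 6 libraries, so their overlap tests nothing about the number. In the 5 ranges of 100 numbers above 500, called shares were 29.2%, 28.8%, 23.4%, 31.3% and 20.4%.

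The typical site followed the same order as the called share. Median log2 RNA/DNA was 4.77, 3.10, 2.10, 2.45 and 0.78 in these 5 ranges of 100 numbers, from the lowest numbers up. In the separate replicates the median was 4.39, 4.77 and 5.32 for numbers 1 to 100 and 0.91, 2.05 and 1.24 for 401 to 500, without overlap. The median share of a site's constructs with RNA fell by number as well, at 81.2%, 71.4%, 66.7%, 62.5% and 55.5%.

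The summed signal did not follow that order. The summed share ratio was 10.3 ± 0.31, 5.60 ± 0.02, 3.15 ± 0.17, 10.8 ± 0.31 and 3.07 ± 0.01 in the same order (SD, n = 3). Numbers 301 to 400 gave 26.2% of the retina RNA counts of passing constructs, more than the 18.0% of 1 to 100. They hold 11 sites with a mean ratio of 10 or more, against 10, 8 and 4 in the ranges before and 5 in the range after. R392, R321, R368, R366 and R332 are among the 11.

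Over the 233 sites the Spearman correlation of number and log2 RNA/DNA was -0.18, and -0.16, -0.17 and -0.17 in the 3 replicates. It was -0.10 over the 153 sites with 10 or more passing constructs, and -0.10 over 196 sites when constructs needed 50 DNA counts. Over all 477 tested R sites it was -0.29, and over the 112 called sites alone -0.07. For B, H and L sites numbered 1 to 500 in the same retina libraries it was 0.01, -0.06 and 0.00. These values describe sites that share the same 6 libraries and carry no test. Number and constructs per site correlated at 0.01 over the 419 sites, and number and retina DNA counts at -0.09. In cortex the correlation of number and log2 RNA/DNA was -0.04 (n = 244), and the median log2 of the 5 ranges lay between -0.20 and -0.03.

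**Figure D2:**
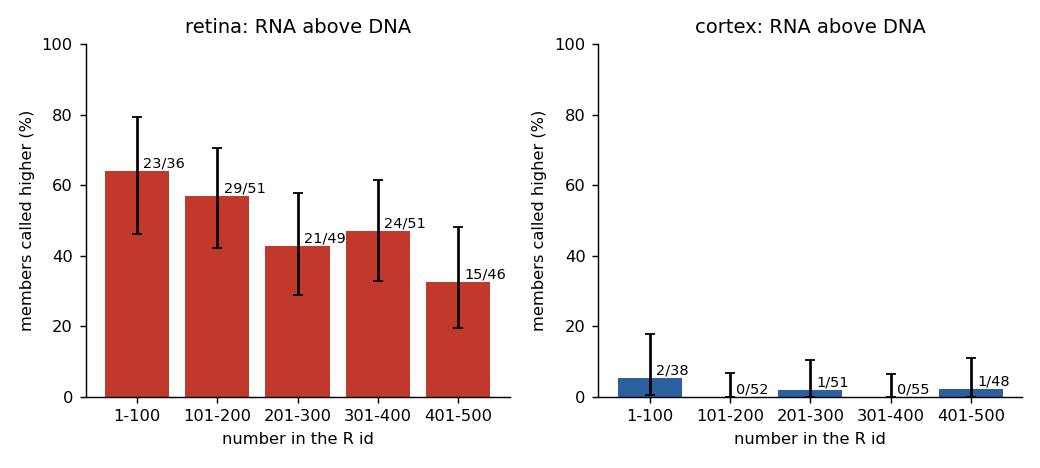
Percent of tested sites called higher in RNA than DNA (edgeR, adjusted p under 0.05) for each 100 identifier numbers in retina (left) and cortex (right), with 95% exact binomial intervals and the counts beside the bars. Retina bars run from 63.9% for numbers 1 to 100 to 32.6% for 401 to 500, with 47.1% for 301 to 400 above 42.9% for 201 to 300; cortex counts are 2, 0, 1, 0 and 1.

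The 5 highest called sites of each 100 numbers are given next, each with the share ratio in its 3 retina replicates. Among numbers 1 to 100, R24 (mm9 chr6:60691746-60692045) had ratios of 46.7, 46.9 and 46.5 over 8 constructs. R64 (chr19:53864126-53864425) had 37.5, 38.5 and 49.7 over 23 constructs. R22 (chr5:44471926-44472225) had 38.8, 41.3 and 30.7. R24 was the tightest of the 25 across replicates, and all of its 8 constructs had RNA. R46 (chr14:34847406-34847705) followed at 32.1, 36.2 and 41.1, and R62 (chr9:110364866-110365165) at 25.6, 23.1 and 24.9. R62 lay under the other 4 in every replicate. The log2 RNA/DNA of these 5 sites ran from 8.12 (SE 0.20) for R62 to 9.05 (SE 0.21) for R24.

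Numbers 101 to 200 hold the highest site of all 233. R154 (chr19:42645866-42646165) had share ratios of 81.2, 53.6 and 91.4 over 6 constructs and a log2 RNA/DNA of 9.71 (SE 0.21). One construct gave 65.1% of its RNA, and without that construct, on the same library totals, the ratios were 49.9, 36.6 and 72.4. More than 1 fragment of R154 was thus high, and its replicates spread widely (SD 19.6). R148 (chr2:3407146-3407445) had 41.4, 45.6 and 29.0 over 8 constructs. Most of its signal came from 1 fragment: 95.4% of the RNA belonged to 1 construct, and the mean ratio went from 38.7 to 2.87 without it, on the same library totals. All 8 constructs had some RNA, 4 of them in 3 of 3 replicates, and the retina call held without the strongest. R177 (chr9:108983066-108983365) was the opposite case, with 28.3, 27.1 and 24.8 over 63 constructs, of which the strongest gave 8.17% of the RNA. R120 (chr1:4373766-4374065) had 29.0, 28.1 and 30.9 over 5 constructs, and R101 (chr14:61969746-61970045) had 17.7, 26.6 and 22.1. All 3 replicates of R120 lay above all 3 of R101.

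Numbers 201 to 300 fell off faster below their top. R288 (chr3:95895926-95896225) had ratios of 31.1, 30.4 and 34.0 over 30 constructs, and R227 (chr13:23790906-23791205) had 34.9, 21.3 and 27.7 over 8. R221 (chr11:78575766-78576065) had 11.1, 12.2 and 12.4, but only 3 of its 9 constructs had RNA, and 84.7% of the RNA came from 1 of them. R246 (chr11:80051866-80052165) reached nearly the same ratios, 10.1, 9.22 and 11.8, with RNA in 27 of 28 constructs. R221 and R246 therefore overlap in their replicates but not in how many fragments carry the signal. R242, the lowest of the 5, had 6.75, 6.27 and 3.61.

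Numbers 301 to 400 hold the strongest group. R321 (chr6:3925746-3926045) had ratios of 52.2, 74.0 and 58.7, R368 (chr14:52727746-52728045) had 63.9, 53.0 and 61.7, and R392 had 62.1, 53.7 and 56.8. R366 (chr9:106216566-106216865) had 56.7, 52.8 and 55.6, and R332 (chr13:92998046-92998345) had 53.5, 42.2 and 44.1. The first 4 overlap in their replicates and do not differ beyond that spread, and R332 had the lowest mean, 46.6. RNA was found in 11 of 11 constructs of R321 and R368, in 16 of 16 of R366 and in 26 of 28 of R392.

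Among numbers 401 to 500, R428 (chr9:83655006-83655305) had ratios of 34.1, 30.7 and 39.0, R500 had 32.9, 34.7 and 28.3, and R491 (chr9:83679186-83679485) had 31.9, 26.3 and 36.5. These 3 overlap, and R500, which carries the last number, overlaps R22 and R46 of numbers 1 to 100. R404 (chr14:106152206-106152505) had 14.2, 18.9 and 14.9, and R458 (chr13:96007466-96007765) had 7.35, 15.6 and 10.5. For the 25 sites, picked for these same values, the largest adjusted p in the edgeR fit with Benjamini-Hochberg adjustment was 6.63e-41, for R242. The retina fit took the spread of most sites from the trend over all sites (infinite prior degrees of freedom, 2 residual ones), so p-values of this size reflect that pooled spread and are not given for single sites.

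**Figure D3:**
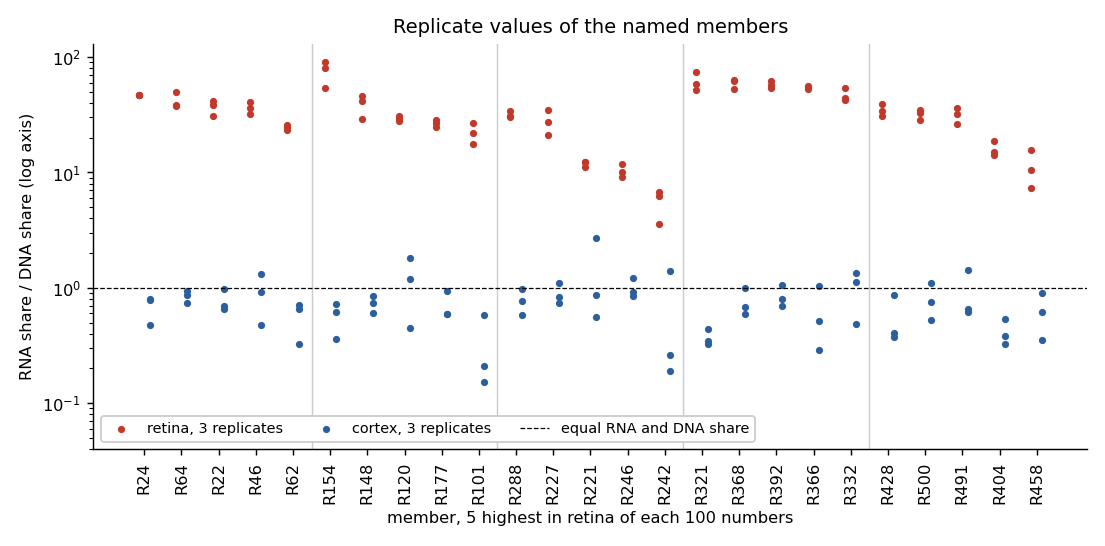
Share ratio (log axis) in each of 3 retina (red) and 3 cortex (blue) replicates for the 5 highest called sites of each 100 identifier numbers, ordered by retina log2 RNA/DNA within each range; the dashed line marks equal RNA and DNA shares. Retina ratios run from 3.61 for R242 to 91.4 for R154, and no cortex replicate of a site reaches its retina replicates. The sites were picked for their retina values, so this gap tests nothing.

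Sites at the edge of a call rested on less RNA. The lowest called were R484 at a log2 of 2.00 (SE 0.70, edgeR adjusted p = 0.0472), R97 at 2.10 (SE 0.63, adjusted p = 0.0108) and R230 at 2.21 (SE 0.38, adjusted p = 5.52e-08). Their share ratios were 0.326, 0.323 and 0.415 for R484, 0.208, 0.319 and 0.843 for R97, and 0.446, 0.350 and 0.438 for R230. All lay under equal shares in every replicate, and scaled by total library size their log2 values were -1.55, -1.44 and -1.33. The highest sites not called were R393 at 3.69 (SE 1.31, adjusted p = 0.0529), R297 at 3.04 (SE 1.40, adjusted p = 0.199) and R467 at 2.98 (SE 1.18, adjusted p = 0.0882). R393 had ratios of 1.32, 0.728 and 1.51, R297 had 0.150, 2.49 and 0.905, and R467 had 0.906, 0.702 and 0.525. R484 was called with all 3 retina replicates only, at adjusted p = 0.286, 0.209 and 0.333 without replicate 1, 2 and 3, and R97 was not called without replicate 3 (adjusted p = 0.732). Sites on the far side of the threshold can thus have higher ratios than called ones, with fewer constructs: 5 to 10 for these 3 against 24 to 50 for the lowest called.

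RNA came from many constructs of the called sites. Of 2127 constructs in the 112 called sites, 54.7% had RNA in 3 of 3 replicates and 18.8% in none. Of 1854 constructs in the 121 sites not called, 2.97% had RNA in all 3 and 56.9% in none. A median of 85% of a called site's constructs had RNA in at least 1 replicate, against 44.4% elsewhere. The strongest construct gave a median of 32.2% of the RNA of a called site and 54.8% of a site not called. The median number of passing constructs was 14 and 11. Since RNA counts made the calls, these shares describe the 2 sets and test nothing.

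Single constructs decided some calls. Without the construct with most RNA in each site, share ratios on unchanged library totals were lower in 102 of the 112 called sites, by a median of -0.28 on the log2 scale. Refitted without these constructs, edgeR ended 6 of the 112 retina calls and added 12. The scaling zero of that refit differed, and its log2 values of the 112 sites lay a median of 0.72 above those of the full fit. For the lost retina calls, ratios are therefore given rather than refitted values. The 5 strongest of the 6 lost were R330 (mean ratio 2.55, 0.828 without the construct), R499 (1.60, 0.597), R283 (0.987, 0.371), R130 (0.670, 0.339) and R360 (0.599, 0.359). The sixth was R97, one of the 3 lowest called sites, which went from 0.457 to 0.174. The first 3 of these have 5 or 6 passing constructs. R283 was also not called without retina replicate 1 (edgeR adjusted p = 0.145), R130 without replicate 2 (0.495) or 3 (0.0864), and R360 without any one replicate (0.0763 to 0.538). Among 77 called sites with 10 or more constructs, 1 construct gave 68.6% of the RNA of R67, 66.5% of R360 and 63.9% of R317. It gave 7.33% of R118, 8.10% of R457 and 8.17% of R177. R118 and R67 had similar mean ratios, 6.23 and 6.45, from 52 of 59 and 10 of 11 constructs with RNA.

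Fragments were cloned in both directions, and the strand is given relative to the genome. Of the called sites, 88 had at least 3 passing constructs on each strand. Their summed share ratio was 10.8, 11.0 and 10.9 for plus-strand constructs and 13.9, 13.2 and 13.5 for minus-strand ones. Minus was thus higher in 3 of 3 replicates, by a small amount: plus minus minus was -0.32 ± 0.05 on the log2 scale (exact sign-flip permutation test, two-sided, p = 0.25, the smallest possible). Site by site the strands followed each other, with a Spearman correlation of 0.83 over the 88 sites. They lay within 1 log2 unit of each other in 49 sites, plus was higher by more in 16 and minus in 23.

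The called sites with the widest gap between strands were all higher on minus. They were R97 at -6.15 (12 plus and 25 minus constructs), R115 at -5.95 (4 and 7), R148 at -5.36 (3 and 5) and R499 at -5.33 (3 and 3), and were picked after their values were seen. R97, R148 and R499 are also sites whose RNA came mostly from 1 construct, at 60.7%, 95.4% and 72.6%. In R115 the largest single share was 39.2%. The 90 sites not called had a correlation between strands of 0.21, and 27 of them lay within 1 log2 unit. RNA counts of these same constructs made the calls, and sites not called had little RNA. The correlations of called and other sites thus describe the sets and test nothing.

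**Figure D4:**
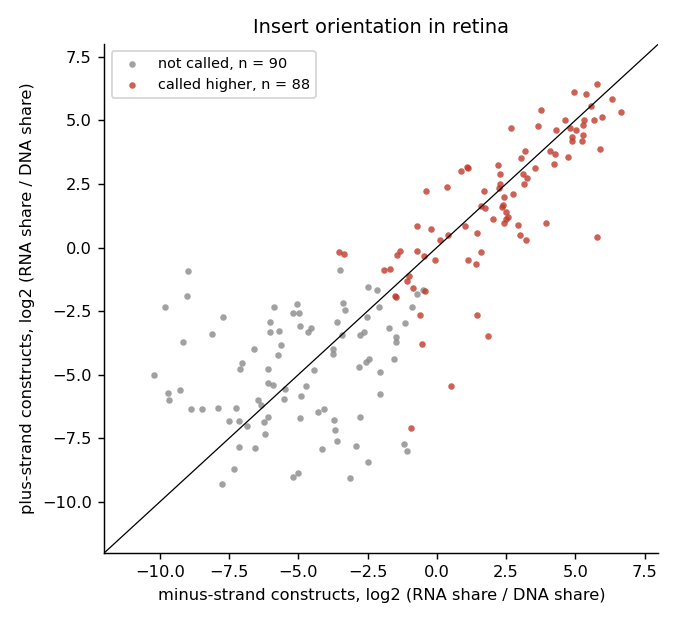
Log2 of the share ratio of plus-strand constructs against that of minus-strand constructs in retina for sites with at least 3 passing constructs on each strand, with the line of equality. The 88 called sites (red) follow the line with a Spearman correlation of 0.83, apart from single sites such as R97 and R115 below it, and the 90 sites not called (grey) have a correlation of 0.21. The calls were made from the same RNA counts.

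The 419 sites lie on 19 chromosomes and none on X, which has 8 of the 3483 target sites. Called sites were found on each of the 19, from 4 of 14 tested on chromosome 7 and 3 of 10 on chromosome 15 to 8 of 10 on chromosome 13. Sequence and gene annotation of the windows were not analysed here.

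Sites close to one another could differ widely or lie on the same side. Among the tested sites, 26 pairs lay within 50 kb, measured between the middles of the captured stretches. Both sites were called in 1 pair, 1 site was called in 10 pairs and neither in 15, so that 16 of 26 pairs had the same call. The pairs are not independent: 34 sites form them, and 10 of the 15 pairs with neither called come from 5 neighbouring sites on chromosome 6. The pairs named below were picked for their values. The pair of called sites is R428 and R491, 24.3 kb apart on chromosome 9, at log2 values of 8.61 and 8.47. R56 and R82 are 1.03 kb apart on chromosome 11. R56 was called with ratios of 2.25, 5.30 and 5.57, and R82 was not, at 0.00278, 0.0857 and 0.311. R121 and R459 are 1.38 kb apart on chromosome 14, with ratios of 2.83, 4.22 and 4.04 against 0.164, 0 and 0.000843. In both pairs the replicates of the 2 sites do not overlap.

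A contrast of this kind is also seen beside some of the strongest sites. R22 at a log2 of 8.70 has R223 at -6.57 within 16.3 kb. R321 at 9.43 has R363 at -2.68 within 18.0 kb, and R392 at 9.35 has R476 at 1.59 within 21.1 kb. None of these 3 neighbours was called. R8, R13, R50, R51 and R233 lie within 10 kb of each other on chromosome 6, and none was called in retina, at log2 values of 2.47, -2.59, -4.83, 0.38 and 0.51. Fragments of R13 and R50 overlap, so those 2 are not independent. R8 had ratios of 0.116, 1.17 and 0.748, and its first replicate was far under the other two.

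Cortex gave few calls among R1 to R500. RNA was higher than DNA in 4 of 244 sites (1.64%, 95% exact binomial interval 0.448 to 4.14), against 2.99% of all 2108 sites tested (edgeR quasi-likelihood test, Benjamini-Hochberg). With unadjusted p under 0.05 there were 11 of the 244, against 138 of the 1864 sites outside R1 to R500. None was called lower, against 0% of all sites, while DESeq2 called 5 lower. In that direction 14 had an unadjusted p under 0.05, against 66 of the 1864 other sites. Scaled by total library size, 2 sites were higher and 5 lower. For DESeq2 and this scaling the shares over all sites were not counted. Without cortex replicate 3, 2 sites were higher, R72 and R247. A log2 of 0 corresponds to share ratios of 0.756, 0.781 and 0.750 in cortex, and the median site lay at -0.13 against -0.09 over all sites.

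The 4 cortex sites were of different kinds. R72 (chr4:117486446-117486745) had cortex ratios of 2.43, 2.97 and 3.92, a log2 RNA/DNA of 2.00 (SE 0.19) and an edgeR adjusted p of 2.43e-06. It was also high in retina, at 18.6, 16.3 and 21.6. One construct gave 68.6% of its cortex RNA and 41.7% of its retina RNA, and the cortex call held without the construct with most RNA. R247 (chr12:36199386-36199685) had cortex ratios of 3.96, 4.08 and 1.99, with a log2 of 2.06 (SE 0.37, adjusted p = 0.00241). Its retina ratios of 5.12, 2.71 and 2.20 overlap the cortex ones. R247 has 5 passing constructs, 1 of which gave 66.8% of its cortex RNA, and without it the log2 was 1.22 and the adjusted p 0.445.

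The other 2 were not called in retina. R462 (chr3:19900786-19901085) had cortex ratios of 1.26, 3.11 and 2.74 (log2 1.54, SE 0.35, adjusted p = 0.0206) and retina ratios of 0, 0.655 and 0.195. Without its strongest construct the cortex log2 was 1.32 and the adjusted p 0.25. R13 (chr6:115888886-115889185) had cortex ratios of 1.31, 2.06 and 1.96 (log2 1.19, SE 0.24, adjusted p = 0.00631) and retina ratios of 0.000252, 0.0553 and 0.0328. Without cortex replicate 3 the adjusted p was 0.356 for R462 and 0.0911 for R13, and without replicate 2 it was 0.0983 for R462. No replicate of R462 or R13 in retina reached the lowest one in cortex. The difference between tissues did not pass the test for either, at -0.98 (SE 2.69, adjusted p = 0.838) for R462 and -3.62 (SE 1.78, adjusted p = 0.240) for R13.

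The 2 tissues differed in how steadily sites kept their place. Share ratios of 2 retina replicates correlated at 0.863 to 0.871 over 233 sites (Spearman), and those of 2 cortex replicates at 0.159 to 0.232 over 244 sites. In cortex 202 of the 244 sites had a mean ratio between 0.1 and 1 and the other 42 between 1 and 10. RNA was counted in all 3 replicates for 244 of 244 sites in cortex and 202 of 233 in retina.

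The direct comparison of tissues used an interaction in edgeR over all 12 libraries. Of 231 sites tested, 109 had a higher RNA/DNA in retina than in cortex (47.2%), against 8.35% of all 2000 sites. No site was higher in cortex, against 5% of all sites. In that direction 3 had an unadjusted p under 0.05, against 291 of the 1769 sites outside R1 to R500, and DESeq2 called 16. Scaled by total library size, 66 were higher in retina and 45 higher in cortex. The shares over all sites were not counted for DESeq2 or for this scaling. The median difference was 2.51 on the log2 scale, and -1.80 over all sites. For the R sites above 500 the count was 57 of 240 (23.8%). The main scaling puts its zero at lower share ratios in retina than in cortex. The log2 differences are therefore larger than the share ratios of the tissues give. With total library size those of the 109 sites moved by a median of -3.25.

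These 109 were all called in retina as well. Without the construct with most RNA, 92 of them kept the call and 17 lost it, among them R221, at 6.54 (adjusted p = 1.66e-05) with and 3.08 (adjusted p = 0.321) without. Of the 111 retina calls that could be tested, the exceptions were R97, with a difference of 2.07 (SE 0.70, adjusted p = 0.0864), and R256, with 2.44 (adjusted p = 0.0815). The largest difference belonged to R321, at 10.57 (SE 0.30, adjusted p = 3.76e-09), with cortex ratios of 0.327, 0.347 and 0.437 against retina ratios above 50. R167 (chr12:51715406-51715705) followed at 10.27 (SE 1.27), R154 at 10.26 and R366 at 9.86. R167 had retina ratios of 16.5, 20.8 and 22.4, and low cortex ratios of 0.396, 0.00614 and 0.292. R335 was alike, at 9.72 (SE 0.78), with retina ratios of 27.8, 37.8 and 19.2 and cortex ratios of 0.962, 0.195 and 0.135. R167 has 5 constructs and R335 has 6, and their cortex replicates spread over a wider range than those of R321.

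Retina and cortex values were not ordered alike. The Spearman correlation of the 2 log2 RNA/DNA values was 0.01 over the 232 sites tested in both, which share no libraries. Cortex replicates correlated with each other at only 0.159 to 0.232, so a low value against retina says little about the sites. The 112 retina calls had a median cortex log2 of -0.04, with 48 of 112 above 0. The sites not called in retina had a median of -0.17, with 46 of 120 above 0. R72 and R247 were called in both tissues. R72 was nevertheless higher in retina, by 5.79 (SE 0.29, edgeR adjusted p = 1.21e-07). That value includes the difference between the scaling zeros of the tissues. R247 had too few constructs passing in both tissues for the comparison of tissues.

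**Figure D5:**
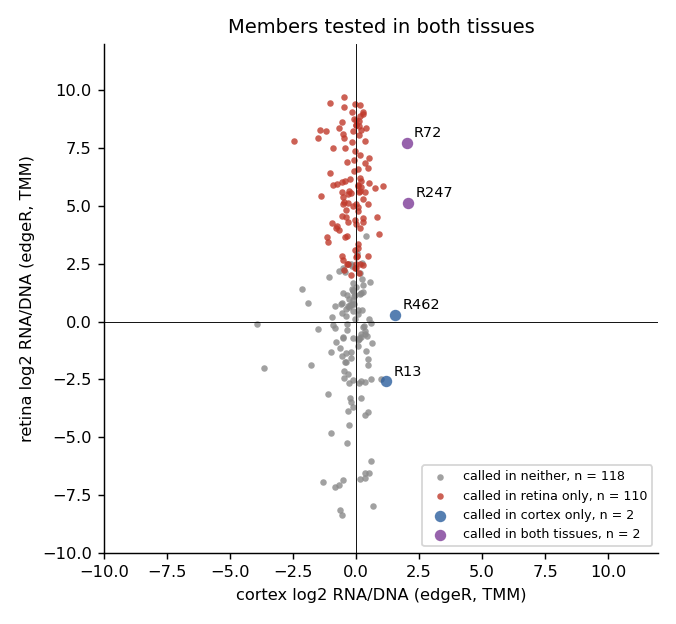
Log2 RNA/DNA from edgeR in retina (vertical) against cortex (horizontal) for the 232 sites tested in both tissues, on equal axes. Retina values run from -8.35 to 9.71 while cortex values run from -3.95 to 2.06; 110 sites were called in retina only (red), R462 and R13 in cortex only (blue), R72 and R247 in both (purple) and 118 in neither (grey).

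Sites with too few constructs for the test are described by their counts alone. Among the 172 with 1 to 4 passing constructs in retina, 48 had no RNA count in any retina replicate, and 28 of these 48 rest on 1 construct. The share without RNA over sites of all letters with so few constructs was not counted, so the 48 are a description only. Each of the 233 tested sites had RNA. The site without RNA that had most DNA counts was R152 (chr12:76735626-76735925), with 0 RNA counts beside 4065 DNA counts over 4 constructs, which allows a share ratio of up to 0.000891. In cortex its ratios were 0.617, 0.782 and 1.29. R326, with 2193 DNA counts, and R280, with 1958, also had cortex RNA, at mean ratios of 0.886 and 0.560. R469, with 2082 DNA counts, was low in cortex too, at 0.0165, 0.122 and 0.0033. R304, with 1987 retina DNA counts, had cortex ratios of 1.90, 1.68 and 5.14 over 8 constructs, and its cortex log2 of 1.73 did not pass the test (SE 0.60, adjusted p = 0.217).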

How the data were processed

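Barcodes were counted in RNA and DNA of 3 retina and 3 cortex replicates, each from separate retinas or animals, per the labels. The authors deposited raw counts per construct, per the file headers. They also deposited, where each DNA library of a tissue had 10 or more counts, every count as a fraction of the library total, the ratio of the RNA fraction to the DNA fraction, and log2 of that ratio plus 0.001. The deposited log2 was recomputed from the counts within 5e-10. The table of fragments was deposited as 2 identical copies and used once. The tools in the submitters' processing notes, given without roles, are bedtools 2.22.1, SAMtools 0.1.19, Bowtie2 2.1.0 and FastQC, with the build mm9.

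Counts of passing constructs were summed per target site and fitted over all sites of all letters with edgeR 4.0.16 in R 4.3.3 (robust quasi-likelihood test, TMM scaling, Benjamini-Hochberg), with the replicate as a block because RNA and DNA of a replicate share a tissue sample per the labels; their deviations correlated at -0.043 to 0.019 only. An SE is the fold change over the square root of F. DESeq2 1.42.0 was an alternative, with other scalings, no block, other minimums, each replicate left out and the strongest construct left out. The fits were checked on simulated counts. The 300 bp windows, given from 1, were derived from fragment positions and deposited overlap lengths, which fixed 345 of 419. Fragments of R1 to R500 were 196 to 690 bp long (median 463), and 42.5% of them covered the whole window.

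Sites named are the 5 highest called of each 100 numbers, all called in cortex, the 5 largest tissue differences, the 3 lowest called and 3 highest not called, the 5 without retina RNA and with most DNA, the 5 highest whose call needs 1 construct, and the 3 most and 3 least dependent on 1 construct; neighbours and strand examples were picked after their values were seen. The sites and these rules were chosen with earlier results of these data known. Window sequence was not analysed here. Tables and figures were made in Python 3.11.15 with pandas 2.3.3, scipy 1.17.1, numpy 2.4.6 and matplotlib 3.10.9.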

Additional observations from a re-analysis of the deposited data

Results flagged for a closer look

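The 2 tissues differed in 109 of the 231 sites tested by the interaction, all of them higher in retina (edgeR, TMM scaling, adjusted p under 0.05). Over all 2000 sites 8.35% were higher in retina and 5% higher in cortex. The direction depended on the fit. Total library size gave 66 of the 231 higher in retina and 45 higher in cortex, and DESeq2 called 16 higher in cortex. Shares over all sites were not counted for these 2 fits. The 5 largest differences on the log2 scale were 10.57 for R321, 10.27 for R167, 10.26 for R154, 9.86 for R366 and 9.72 for R335. Retina lay above cortex in every replicate of these 5, which were picked for this difference. Such values include the difference between the scaling zeros of the tissues. Delivery, age, culture and lane differ between the tissues as well and cannot be told apart from tissue.

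Sites outside the tests also gave signal. Of the 172 sites with 1 to 4 passing constructs in retina, 37 (21.5%) had a share ratio above 1 in 3 of 3 replicates, and 14 above 10. Among the 233 tested sites these counts were 86 (36.9%) and 36. The share over sites of all letters with 1 to 4 passing constructs was not counted. The L and H sites had summed ratios of 0.0686 and 0.0773, which are values of whole classes and not of single sites. The highest means of the 172 belonged to R141 (1 construct; 60.2, 99.4 and 185), R23 (3 constructs; 38.9, 116 and 53.7) and R129 (2 constructs; 69.9, 81.7 and 44.9). Their replicates spread more widely than those of most named sites, and no test was made on them.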

How the results depend on the processing

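Total library size moved retina values of the called sites by -3.55 (median log2), retina minus cortex values by -3.25 and cortex values by -0.37. It left 67 higher and 46 lower in retina, 2 higher and 5 lower in cortex, and 66 higher in retina than cortex with 45 in the other direction. It turned the sign in retina of R97 (-1.44), R130 (-0.72), R230 (-1.33), R283 (-0.13), R360 (-0.87), R457 (-1.23) and R484 (-1.55), and in retina minus cortex of R130 (-0.39), R230 (-0.48), R457 (-0.86) and R484 (-0.98). DESeq2 kept 112 of 112 retina calls and gave 10 lower in retina, 5 lower in cortex and 16 higher in cortex than retina. Without the top construct 7 were lower in retina, 2 higher in cortex and 4 higher in cortex than retina, and 92 of 109 calls higher in retina than cortex were kept. A DNA minimum of 50 gave 2 higher and 1 lower in cortex, a minimum of 1 gave 1 higher in cortex than retina, and at least 3 constructs gave 4. The correlation with the number was -0.10 at a DNA minimum of 50, -0.10 with at least 10 constructs and -0.16 with at least 3. Leaving out each replicate in turn gave 103 to 108 higher in retina, 2 to 5 higher and 0 to 1 lower in cortex, 99 to 117 higher in retina than cortex, and 0 to 6 the other way. The 2 cortex calls came without replicate 3, and the 1 lower call without replicate 2. With no replicate block the counts were 119, 3 and 119, which ended the cortex call of R462. The causes were not tested, and shares over all sites were not counted for any setting in this paragraph. RLE size factors kept all 112, 4 and 109 calls. Of the 172 sites with 1 to 4 passing constructs, 143 had under 5 constructs in the library, so deeper counting could not bring them to the minimum, and 29 had 5 or more.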
